A study of Homo sapiens with 4 samples.

Results

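The receptors for glutamate, GABA, acetylcholine and serotonin were represented on the array by 84 probes of 74 genes, among 20481 gene symbols in all. They were chosen by symbol, as gene probes whose name starts with GRIA, GRIK, GRIN1, GRIN2, GRIN3, GRM, GABR, CHRN or HTR followed by a subunit letter or digit. The 74 genes comprised 4 AMPA, 5 kainate, 7 NMDA and 8 metabotropic glutamate receptors, 19 GABA-A receptor subunits, 16 nicotinic acetylcholine receptor subunits and 15 serotonin receptors. The letters HTR also open the names of 4 HtrA serine proteases, which are not receptors and were left out.

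Fast synaptic transmission runs through ligand-gated ion channels built of several subunits. AMPA, kainate and NMDA receptors pass cations when glutamate binds, nicotinic receptors and the serotonin HTR3 channels do so for acetylcholine and serotonin, and GABA-A receptors pass chloride. The metabotropic glutamate receptors and the other serotonin receptors signal through G proteins. Most of these genes are characteristic of neurons, where some become active once the repressor REST is lost, although glial cells and gliomas also express some of them.

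The cells were LN229, an established human glioblastoma line, in which the stem cell transcription factor *SOX2* was knocked down with small interfering RNA (siRNA). Cells given a control siRNA without a target (mock knockdown) served for comparison, and no untransfected cells were analysed here. Total RNA was measured on 1-colour Applied Biosystems Human Genome Survey arrays, 2 per group, from transfections that the methods call biological replicates. The comparison asks whether neuronal receptor genes were derepressed when *SOX2* was lowered.

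*SOX2* itself read 45.4 and 68.2 in mock cells and 20.4 and 14.5 after knockdown, as signals scaled so that 100 is the 75th percentile of each array's features. Both knockdown arrays were below both mock arrays, and the ratio of the means was 0.308. The log2 change, knockdown minus mock, was -1.69 ± 0.28 (SE of the limma fit), with an adjusted p of 0.114 by limma (Benjamini-Hochberg, all kept features). With the arrays left at a common median this adjusted p was between 3.01e-07 and 3.92e-07.

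The scanner's signal-to-noise ratio (S/N) exceeded 3 for a similar part of the probes on each array, 63.5% to 65.1% on 3 of them and 68.9% on knockdown replicate 2. A feature was kept where S/N exceeded 3 on both arrays of either group, 18378 of 27739 (66.3%). The treatment text names SW620 (a line from colon cancer), whereas the other labels give LN229. Of 8 glioma or mesenchymal markers 7 had S/N over 3 on all 4 arrays, against 4 of 11 colon epithelial markers, and the colon marker *KRT20* was over 3 on none. The summed signal of the colon list ranged from 1982 to 5528 on the mock arrays and from 2921 to 5356 on the knockdown arrays. Most of it was *CDH1*, at 1387 and 4922 on the mock and 2202 and 4674 on the knockdown arrays, so it followed the replicate number rather than the treatment. Of 14 neuron markers on the array 8 had S/N over 3 on all arrays, and their summed signal was 1661 and 1627 in mock and 1944 and 1933 in knockdown cells. Of the 10 kept neuron markers 7 had a log2 change above and 3 below 0. *SYT1* and *TUBB3* had ratios of 1.64 and 1.18, *MAP2* of 0.803 and *GAP43*, kept only through the mock arrays, of 0.551. The brightest, *TUBB3*, was at 789 and 711 in mock and 863 and 909 in knockdown cells and weighed most in the sum. The 10 astrocyte or oligodendrocyte markers summed to 912 and 1075 in mock and 641 and 585 in knockdown cells, with 6 of them over the S/N criterion on all arrays. The part of these shifts in the receptor values was not tested. Fewer cells that express a gene and less RNA per cell cannot be told apart in such bulk RNA.

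Most receptor genes were not detected in either condition. After the filter 27 of the 72 measurable genes were kept (37.5%), against 66.3% of all features. The other two, *GABRA5* and *HTR3A*, had their only probe left out for a quality flag on mock replicate 2. Of the 45 genes that were not kept, 38 had S/N over 3 on no array and 7 on a single array. Their scaled signals ranged from the floor of 1 to 8.99, with a median of 1.84.

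**Figure D1:**
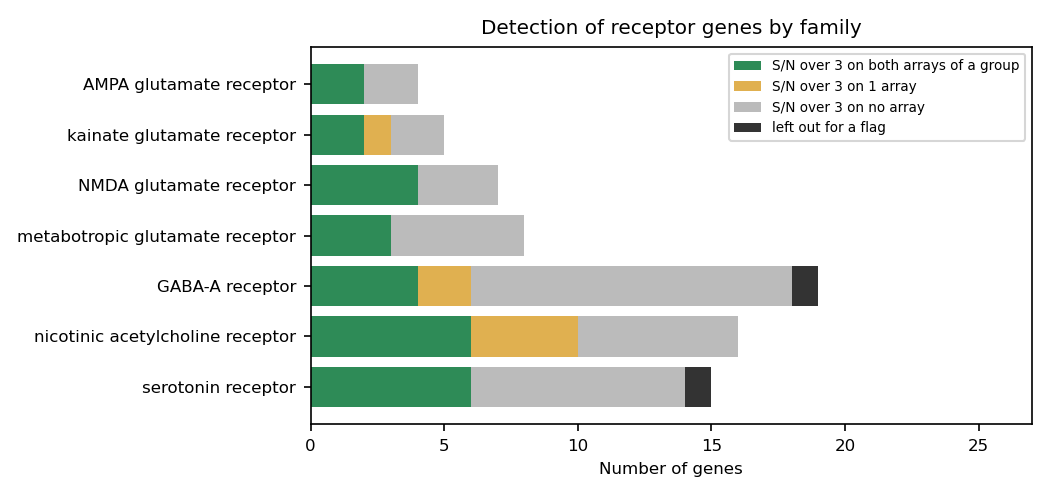
Number of receptor genes on the array (horizontal axis) by family, split by the arrays on which S/N exceeded 3. Kept genes (green) were 4 of 7 in the NMDA family and 4 of 19 in the GABA-A family, which had the most genes without signal.

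By family, of the NMDA receptors 57.1% were kept and of the AMPA receptors 2 of 4, whereas 22.2% of the measurable GABA-A subunits were. S/N was over 3 on no array for *GRIA1* and *GRIN2B*, an AMPA and an NMDA receptor subunit of forebrain neurons, for *CHRNA7*, the homomeric nicotinic subunit, and for *HTR1A* and *HTR2A*. None of these genes came above background on either knockdown array, so no fold change is given for them. The 7 genes seen on 1 array were *GRIK4*, *GABRA2*, *GABRG3*, *CHRNA1*, *CHRNA2*, *CHRNA9* and *CHRNG*. Among them *CHRNA2*, a neuronal nicotinic subunit, lay at the floor of 1 on both mock arrays and at 2.46 and 4.25 on the knockdown arrays, with S/N of 2.22 and 7.66, and so was measured in 1 knockdown array only.

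Part of the receptor genes lie close together. In the RefSeq annotation 24 of the 74 genes lie in 9 clusters of 2 to 4 members, with at most 1 other protein-coding gene between neighbours. Of these 24 genes 5 were kept, beside 27 of all 72 measurable receptor genes (37.5%) and 66.3% of all features. The 24 include *GABRA5* and *HTR3A*, left out for a flag, and many GABA-A subunits, the family kept least. A link between position and detection was not tested. The GABA-A cluster on chromosome 4 holds 4 members, none of them kept. In the nicotinic cluster on chromosome 15 *CHRNA5* and *CHRNB4* were kept and *CHRNA3* between them was not.

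**Figure D2:**
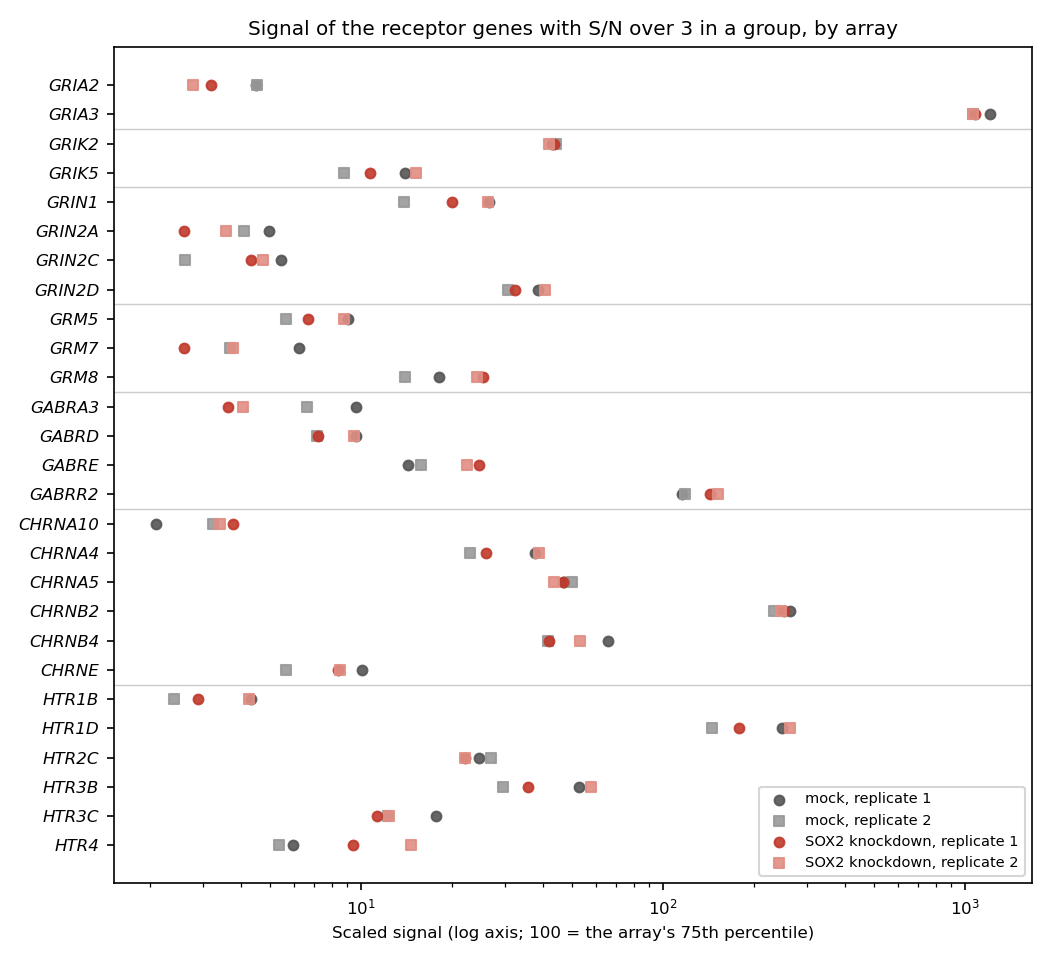
Scaled signal (horizontal log axis; 100 is the 75th percentile of an array) of the 27 kept receptor genes on each of the 4 arrays, with lines between families. Mock (grey) and knockdown (red) points overlap for 17 of the 27 genes, and levels of different genes come from different probes and are not comparable.

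The kept receptor genes lay on both sides of 0. The median log2 change of the 27 genes was 0.10, beside 0.00 for all kept features, with 16 above and 11 below 0. It was -0.19 without mock replicate 2, -0.08 without knockdown replicate 2 and 0.31 without knockdown replicate 1, so its sign rested on single arrays. Of the 27 genes 20 passed the filter in both groups. The other 7 passed in the mock group only (*GABRA3*, *GRIN2A* and *GRM7*) or in the knockdown group only (*CHRNA10*, *CHRNE*, *GRIN2C* and *HTR1B*), which favours a change towards that group. Under the study's cutoff of a 2-fold ratio of the replicate means, 1 gene was higher (*HTR4*) and 1 was lower (*GABRA3*), beside 1.47% of all kept features higher and 0.909% lower (2.38% in either direction). With S/N over 3 required on every array, 1 of 20 genes was over 2-fold (*HTR4*) and 0 were lower, beside 1.45% of 16908 features. A 1.5-fold cutoff took 6 of the 27, beside 9.86% of all features. The limma test left 0 receptor genes and 0% of all features at an adjusted p under 0.05, and 6 genes (22.2%, *GABRA3* among them) at an unadjusted p under 0.05, beside 17.2% of all features. The groups of arrays did not overlap for 10 of the 27 genes (37.0%), 5 higher and 5 lower, beside 47.2% of all features.

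The adjusted calls depended on how the arrays were scaled. With the arrays scaled to their median, left without further scaling or taken from the authors' series table, *HTR4* and *GABRA3* passed an adjusted p of 0.05, beside 3.62%, 3.53% and 3.48% of all features. In those fits limma gave every feature 1 common SD, between 0.281 and 0.285 on the log2 scale. It took no account of a gene's own spread. *GABRA3* had passed the filter only through the mock arrays, which favours a lower value after knockdown. The kept receptor genes had a median S/N of 12.7, beside 31.4 for all kept features. Their median standard error of the log2 change was 0.229, beside 0.157 for all kept features. The 95% interval of the change lay within 2-fold either way for 13 of the 27 genes and reached a 2-fold change for 14.

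**Figure D3:**
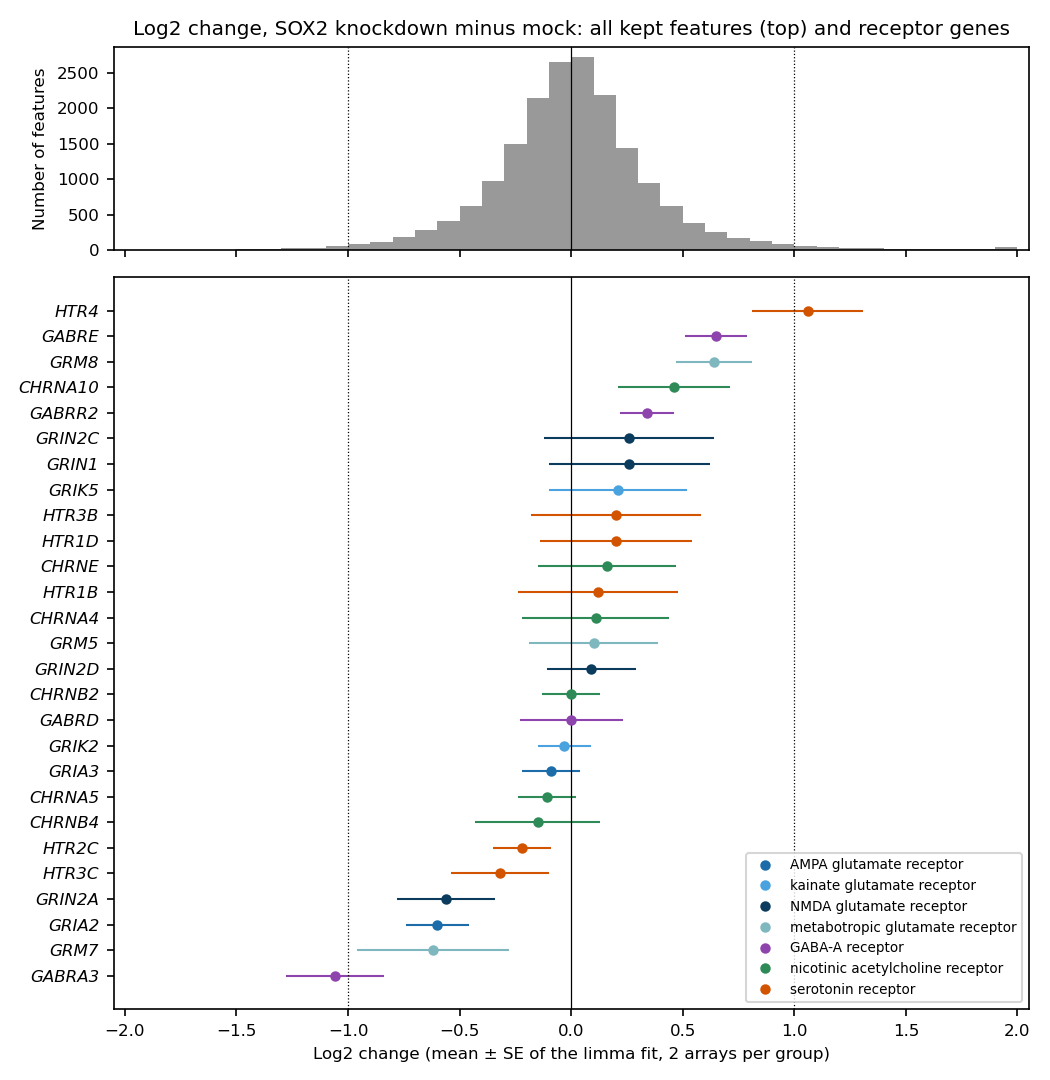
Log2 change, knockdown minus mock, for all 18378 kept features (top, histogram, values beyond 2 either way drawn at 2) and for the 27 kept receptor genes (bottom, fitted change with its SE, coloured by family). Dotted lines mark a 2-fold change of the log means, reached only by *HTR4* at 1.06 and *GABRA3* at -1.06.

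Among the serotonin receptors, 6 of 15 genes were kept. *HTR4* (hCG37437.3), a Gs-coupled receptor that raises cyclic AMP, read 5.94 and 5.37 in mock cells and 9.41 and 14.7 after knockdown. Both knockdown arrays were above both mock arrays, with knockdown replicate 2 the highest, and S/N was over 3 throughout. The mean was 5.66 ± 0.399 (SD, n = 2) in mock and 12.1 ± 3.75 (SD, n = 2) in knockdown cells, a ratio of 2.13. The log2 change was 1.06 ± 0.25 (SE), with a limma p of 0.0112 and an adjusted p of 0.165. Without knockdown replicate 2 the ratio was 1.66, under the 2-fold cutoff.

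Promoters of *HTR4*, *GABRR2* and *GABRE*, which were higher at an unadjusted p under 0.05, are shown because a factor of the SOX family binds DNA at short words, and these sequences let the words be found. Each is the 250 bases before an annotated start on the gene's strand (RefSeq, GRCh38.p14), and capitals mark CATTGT or CTTTGT on either strand. *HTR4* has 2 annotated starts on the minus strand of chromosome 5, at chr5:148637062-148637311 and chr5:148654528-148654777. *GABRR2* lies on the minus strand at chr6:89315300-89315549 and *GABRE* on the minus strand at chrX:151974677-151974926.
HTR4, first window: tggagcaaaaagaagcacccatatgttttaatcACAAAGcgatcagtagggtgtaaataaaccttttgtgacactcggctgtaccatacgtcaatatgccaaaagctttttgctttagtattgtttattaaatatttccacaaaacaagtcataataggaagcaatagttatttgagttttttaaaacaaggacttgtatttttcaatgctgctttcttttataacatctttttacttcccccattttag
HTR4, second window: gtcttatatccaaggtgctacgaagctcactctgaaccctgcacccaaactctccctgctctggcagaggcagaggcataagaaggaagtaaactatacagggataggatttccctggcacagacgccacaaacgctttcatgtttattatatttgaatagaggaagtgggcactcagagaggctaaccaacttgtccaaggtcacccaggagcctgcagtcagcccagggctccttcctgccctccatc
GABRR2: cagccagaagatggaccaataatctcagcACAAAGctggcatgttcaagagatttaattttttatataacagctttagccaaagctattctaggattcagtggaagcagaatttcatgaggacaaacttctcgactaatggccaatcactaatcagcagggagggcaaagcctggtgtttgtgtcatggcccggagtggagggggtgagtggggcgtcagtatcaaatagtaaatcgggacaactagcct
GABRE: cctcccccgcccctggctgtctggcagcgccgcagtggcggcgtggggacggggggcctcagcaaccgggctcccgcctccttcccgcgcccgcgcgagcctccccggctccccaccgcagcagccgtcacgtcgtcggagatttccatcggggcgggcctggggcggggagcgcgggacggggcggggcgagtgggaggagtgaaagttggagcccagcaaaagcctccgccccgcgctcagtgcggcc

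The first *HTR4* window and the *GABRR2* window each hold 1 match, while the second *HTR4* window, the *GABRE* window and the 4 windows of *GRM8* hold none. Such matches are common: 24.5% of 35116 promoter windows of 300 bases (250 before and 50 after the start) hold one, beside 11.7% of the 77 windows of 55 receptor genes in the table. A match describes the letters only.

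None of the other kept serotonin receptors had an unadjusted limma p under 0.05. *HTR1D*, a Gi-coupled receptor, was at 247 and 145 on the mock and 179 and 264 on the knockdown arrays. *HTR3B*, a channel subunit that assembles with *HTR3A*, was at 52.6 and 29.6 on the mock and 35.7 and 57.7 on the knockdown arrays. For both genes mock replicate 1 and knockdown replicate 2 were the high arrays, the groups overlapped, and the log2 change was 0.20 with SE of 0.34 and 0.38. *HTR1B*, Gi-coupled like *HTR1D*, had the same order at low signal (4.33 and 2.40, then 2.89 and 4.25). *HTR2C*, a Gq-coupled receptor, was at 24.7 and 26.9 in mock and 22.1 and 22.2 in knockdown cells, lower without overlap by a log2 change of -0.22 ± 0.13 (SE). *HTR3C*, a further channel subunit, overlapped between groups, with a log2 change of -0.32 ± 0.22 (SE). The median change of the 6 kept serotonin receptors was 0.16.

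**Figure D4:**
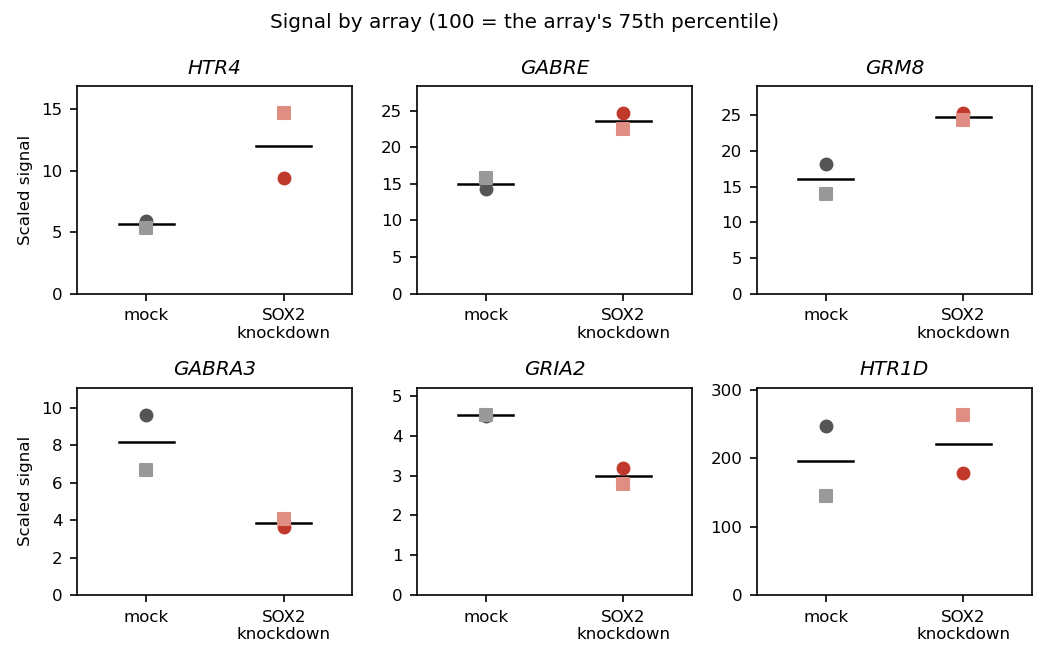
Scaled signal on each array (circles replicate 1, squares replicate 2, line at the mean) for the 5 receptor genes with the largest changes at an unadjusted p under 0.05 and for *HTR1D*. In the first 5 panels the groups do not overlap, while *HTR1D* spans 145 to 264 with both groups intermixed.

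The 4 kept GABA-A subunits differed in direction. *GABRA3* (hCG37638.2), an alpha subunit that sets benzodiazepine sensitivity, was at 9.63 and 6.65 in mock cells and 3.62 and 4.08 after knockdown. Both knockdown arrays were lower. The gene passed the filter only through the mock arrays, where it was high, and its S/N was 1.74 on knockdown replicate 1. The means were 8.14 ± 2.11 and 3.85 ± 0.330 (SD, n = 2 each), a ratio of 0.473 and a log2 change of -1.06 ± 0.22 (SE), given as a description. The ratio was 0.579 without mock replicate 1 and 0.502 without knockdown replicate 1, both short of 2-fold.

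*GABRE* (hCG38708.2), the epsilon subunit, which lies on the X chromosome as *GABRA3* does, was higher. It was at 14.3 and 15.8 in mock and 24.7 and 22.5 in knockdown cells, so every knockdown array exceeded every mock array. The ratio was 1.57 and the log2 change 0.65 ± 0.14 (SE), with a limma p of 0.00695 and an adjusted p of 0.142, the lowest among the receptor genes. *GABRR2* (hCG1644466.2), a rho subunit known from the retina, was at 116 and 118 in mock and 143 and 152 in knockdown cells. Its log2 change was 0.34 ± 0.12 (SE; limma p 0.0460, adjusted p 0.281). A second feature of *GABRR2*, at low signal but with S/N of at least 3.84, overlapped between the groups at 5.46 and 2.97 against 5.21 and 4.90. The level of *GABRR2* is therefore uncertain by probe. *GABRD*, the delta subunit of extrasynaptic receptors, was at 9.63 and 7.14 in mock and 7.24 and 9.48 in knockdown cells, with a log2 change of 0.00 ± 0.23 (SE).

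Of the 24 glutamate receptors 11 were kept, 6 with a change above and 5 below 0. *GRIA2* (hCG26927.2), the AMPA subunit that makes the channel impermeable to calcium, was at 4.49 and 4.53 in mock cells and 3.18 and 2.78 after knockdown. The groups did not overlap, the lowest S/N was 3.20, and the log2 change was -0.60 ± 0.14 (SE; limma p 0.00924, adjusted p 0.158). A floor of 5 in these units, at the level of the signal itself, made the change 0.00.

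*GRIA2* is shown with the element bound by REST (RE1), because REST silences neuronal genes and its own signal was higher here. The left part of the RE1 word, TTCAGCACC, occurs on either strand in 0.376% of all promoter windows, and among the 55 receptor genes with a window in those of *GRIA2* and *GRM2* alone. The right part, GGACAGC, follows on the same strand in both, after 2 bases in *GRIA2* (chr4:157220383-157220410, minus strand, opposite to the gene) and after 7 in *GRM2* (chr3:51706863-51706890, plus strand). Capitals mark both parts.
GRIA2: ctTTCAGCACCgaGGACAGCgcctcgct
GRM2: gaTTCAGCACCacgaggcGGACAGCtcc

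*REST* was at 9.31 and 10.7 in mock and 25.8 and 21.7 in knockdown cells, a ratio of 2.37 (limma adjusted p 0.101), while *GRIA2* was lower and *GRM2*, a presynaptic metabotropic receptor, had S/N over 3 on no array. Whether these values are linked was not tested.

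The other AMPA receptor kept was *GRIA3*, whose probes disagreed. Of the 2 probes averaged in its brightest feature, 1 was at 2425 and 2127 in mock and 2151 and 2123 in knockdown cells, and the other had S/N under 3 on all arrays. Together they gave a log2 change of -0.09 ± 0.13 (SE). A further *GRIA3* probe shares a gene ID with *MRRF*, a mitochondrial ribosome recycling factor, and read 29.5 and 28.6 against 34.4 and 40.8. The level of *GRIA3* is therefore uncertain by probe.

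The kainate receptors *GRIK2* and *GRIK5* differed by less than their spread. *GRIK2* was between 42.1 and 44.3 on all 4 arrays, with a log2 change of -0.03 ± 0.12 (SE), and its 95% interval ran from -0.35 to 0.30. This is a mean of 2 probes, both above background on every array, with ratios of 0.913 and 1.11. *GRIK5*, an auxiliary high-affinity subunit, had mock values of 14.0 and 8.77 and knockdown values of 10.7 and 15.2.

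In the NMDA family the obligatory subunit *GRIN1* was at 26.5 and 13.9 in mock and 20.1 and 26.3 in knockdown cells. The regulatory subunit *GRIN2D*, prominent in development, was at 38.5 and 30.6 in mock and 32.4 and 40.8 in knockdown cells. Both overlapped between the groups, with log2 changes of 0.26 ± 0.36 and 0.09 ± 0.20 (SE). *GRIN2A*, the main adult forebrain partner, was lower without overlap (4.98 and 4.10 against 2.60 and 3.59), by a log2 change of -0.56 ± 0.22 (SE), but passed the filter only through the mock arrays, with S/N of 2.17 on knockdown replicate 1. *GRIN2C*, a cerebellar subunit, overlapped, and only 1 of its 2 probes was above background.

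Among the metabotropic receptors *GRM8* (hCG1811285.3), a presynaptic Gi-coupled receptor, was higher, at 18.1 and 14.0 in mock and 25.3 and 24.3 in knockdown cells. Every knockdown array was above every mock array, the ratio was 1.55, and the log2 change was 0.64 ± 0.17 (SE; limma p 0.0179, adjusted p 0.196). Computed from the raw readings with normexp background correction, its log2 change was 0.18. *GRM7*, of the same subgroup, had a change of the other sign and overlapping groups (6.26 and 3.68 against 2.60 and 3.76; log2 change -0.62 ± 0.34, SE). *GRM5*, a Gq-coupled receptor, overlapped, with a log2 change of 0.10 ± 0.29 (SE).

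None of the 6 kept nicotinic subunits passed an unadjusted p of 0.05. *CHRNB2*, the beta subunit of the commonest neuronal receptor, was at 263 and 233 in mock and 251 and 246 in knockdown cells, with a log2 change of 0.00 ± 0.13 (SE). Its usual partner *CHRNA4* was at 37.7 and 22.9 in mock and 26.0 and 38.9 in knockdown cells and overlapped as well. The 4 arrays were close together for *CHRNB2*, whereas *CHRNA4* varied more within a group than between groups. *CHRNA5*, an accessory subunit, was at 47.0 and 50.2 in mock and 46.6 and 43.6 in knockdown cells, slightly lower without overlap (log2 change -0.11 ± 0.13, SE). *CHRNB4*, its neighbour on chromosome 15, was at 66.0 and 41.7 against 42.1 and 53.3. *CHRNA10*, a hair cell subunit near background, was at 2.09 and 3.25 in mock and 3.76 and 3.43 in knockdown cells, a log2 change of 0.46 ± 0.25 (SE), and passed the filter only through the knockdown arrays. *CHRNE*, the epsilon subunit of the adult muscle receptor, overlapped with S/N from 2.71 to 4.27.

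Genes that make, carry and anchor these transmitters were examined as 9 companion lists, of which 162 of 164 entries matched the array and 109 features were kept. Over 2-fold, 6 were higher and 4 lower (9.17%, beside 2.38% of all kept features), and 23.9% had an unadjusted p under 0.05, beside 17.2%. The limma test left 0 at an adjusted p under 0.05, and the median log2 change was -0.05. Of the genes past 2-fold, *GRIP1*, *SYT4*, *CHGB* and *SCG3* passed the filter only through the group where they were high. With S/N over 3 required on every array, fewer than 109 list features remained. Of these 6 were over 2-fold, beside 245 of 16908 features (1.45%).

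**Figure D5:**
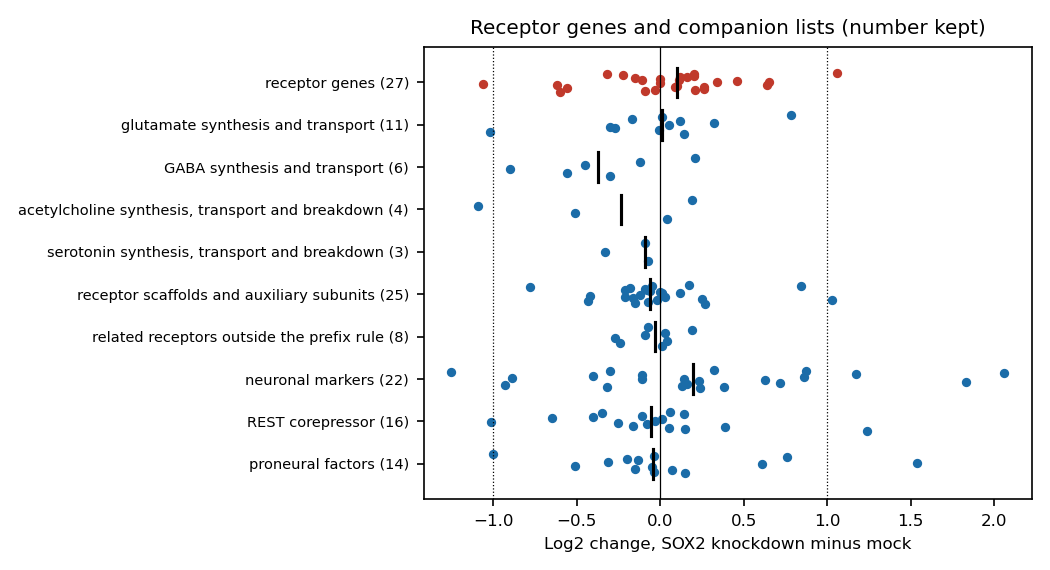
Log2 change, knockdown minus mock, of each kept gene (points) in the receptor group (red) and in the 9 companion lists (blue), with the number kept in parentheses and a bar at each median. The receptor median is 0.10, the list medians lie between -0.38 and 0.20, and the neuronal markers reach from -1.25 to 2.06.

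In the 4 lists of transmitter synthesis, transport and breakdown 2 of 24 kept genes passed 2-fold (8.33%, beside 2.38%), both lower, and 4 had an unadjusted p under 0.05 (16.7%, beside 17.2%). The largest decreases were those of *GLUL*, *BCHE* and *ABAT*, which convert or break down a transmitter. Others of that kind changed less, among them *GLUD1* and *GLUD2* (shared feature, ratio 0.993), *MAOB* (0.935) and *MAOA* (0.791). *GAD2*, which makes GABA, had a ratio of 0.667 and passed the filter only through the mock arrays. *GLUL*, which turns glutamate into glutamine, was at 394 and 442 in mock and 222 and 190 in knockdown cells, a ratio of 0.494 (limma adjusted p 0.103). *BCHE*, butyrylcholinesterase, was at 451 and 439 in mock and 202 and 216 in knockdown cells, a ratio of 0.470 (adjusted p 0.0879). In both the groups were widely apart and S/N was high. *ABAT*, the GABA transaminase, was at 12.3 and 13.0 against 6.80 and 6.78, a ratio of 0.537 (adjusted p 0.101). The cystine and glutamate exchanger *SLC7A11* was higher, at 10.9 and 10.9 against 16.1 and 21.7, a ratio of 1.73 (adjusted p 0.168). Of 6 kept genes of GABA synthesis and transport 5 were below 0, with a median of -0.38, and all 3 kept serotonin genes lay between -0.33 and -0.07, among them *MAOA*, which breaks serotonin down.

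Of 25 kept scaffolds and auxiliary subunits 1 passed 2-fold, beside 2.38% of all kept features. *GRIP1*, an AMPA receptor anchor, was not above the S/N criterion on the mock arrays, at 1.12 and the floor of 1, and gave faint signals of 3.18 and 1.47 on the knockdown arrays, so no fold is given. The neuroligins *NLGN3* and *NLGN2* are postsynaptic adhesion proteins. *NLGN3* had a log2 change of 0.84 ± 0.31 (SE, limma adjusted p 0.281) and *NLGN2* of -0.78 ± 0.24 (SE). *NLGN2* passed the filter only through the mock arrays, with S/N of 2.84 on knockdown replicate 2, so its change is given as a description. Of the related receptors outside the naming rule (muscarinic, GABA-B, glycine and others) 8 were kept. Of these, 0 passed 2-fold or an unadjusted p of 0.05 by limma, beside 2.38% and 17.2% of all kept features. Their changes ran from -0.27 to 0.19. The widest was *CHRM2*, a muscarinic receptor, at 11.1 and 13.9 against 9.41 and 11.3.

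The log2 changes of the 22 kept neuronal markers ran from -1.25 to 2.06. Over 2-fold, 3 were higher and 1 lower, beside 1.47% and 0.909% of all kept features. An unadjusted limma p under 0.05 was reached by 10 (45.5%, beside 17.2%), 6 higher and 4 lower. The 4 lower were *SYN3*, *GAP43*, *VAMP2* and *SCG3*. Each passed the filter only through the mock arrays, which favours a lower value after knockdown. Of the 10, only *SCG2*, *UCHL1*, *STX1A* and *SYT1* exceeded the S/N criterion on every array, and all of these were higher. *UCHL1*, *STX1A* and *SYT1* had ratios of 1.82, 1.81 and 1.64 (limma adjusted p 0.117, 0.147 and 0.140). Also above the criterion on every array, *MAP2* and *NCAM1* were lower without overlap (ratios 0.803 and 0.815). Their unadjusted limma p was 0.0853 and 0.112. *SCG2*, a granin of secretory vesicles, was at 58.3 and 50.6 in mock and 232 and 220 in knockdown cells, a ratio of 4.15 (limma adjusted p 0.0700). *SYT4*, a vesicle synaptotagmin, and *CHGB*, another granin, were kept only through the knockdown arrays. *SYT4* was at 1.28 and the floor of 1 in mock and 4.49 and 3.59 in knockdown cells, and *CHGB* at 1.28 and 2.55 against 3.62 and 4.58, so the mock values lay at background and no fold is given. *SCG3*, a further granin, was lower, at 14.0 and 15.0 against 8.10 and 4.58, a ratio of 0.438, with S/N of 2.78 on knockdown replicate 2. All 16 genes in the list of *REST*, its corepressors and related regulators were kept. Over 2-fold, *REST* was higher and *HDAC1*, a histone deacetylase, lower, beside 1.47% and 0.909% of all kept features. *HDAC1* was at 3756 and 4269 against 2179 and 1823 (ratio 0.499, limma adjusted p 0.111). *DLX2*, a homeobox factor of GABAergic neurons, was the 1 proneural factor over 2-fold, at 10.6 and 11.0 against 30.2 and 32.5 (ratio 2.90, adjusted p 0.0701). *EBF3*, another factor of neuronal differentiation, was at 72.2 and 79.3 against 37.3 and 38.6, a ratio of 0.501 (adjusted p 0.101). Of 14 kept proneural factors 3 were higher and 2 lower at an unadjusted p under 0.05 by limma (35.7%, beside 17.2% of all kept features). The 1 factor past 2-fold stood beside 2.38% of all kept features.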

How the data were processed

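The labels' source names gave the groups, and their titles the replicate numbers. The deposited scanner files hold, per the file headers, a background-subtracted signal intensity, normalized within the array, and the signal-to-noise ratio, used here as a score; scanner software and genome build are not given in the sources used here. The authors' series table is a ratio per probe: scanner signal times a constant, divided by the probe's median (at least 10). Its column medians were 0.102, it returned the scanner signals within 5% for 100% of values, and its scale and direction were so settled.

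Control features and 210 probes with a flag of 5000 or more were left out, probes of 1 Celera gene ID were averaged, arrays were divided by their 75th percentile and floored at 0.01 of it, and log2 was taken. Before this scaling the 75th percentile of the features was 6.12 to 7.07, and the number of arrays limits the precision. A gene with several features was given its brightest. limma 3.58.1 (R 4.3.3; lmFit, eBayes, two-sided, Benjamini-Hochberg over 18378 features) was checked on simulated data. The study used a 2-fold cutoff without a test.

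Named genes were *SOX2*, all kept receptor genes, and at most 3 per companion list, those past 2-fold first and then the largest changes; others were named after their values were seen. Members and lists were chosen with earlier results of these data known. Promoters came from RefSeq's GRCh38.p14 table, which held 55 of the 74 genes. Alternatives covered scaling, background, floor, S/N filter, probe averaging, variance trend, replicate block and leaving out each array; the crossed pairing was added after seeing the data. Same-numbered arrays deviated in opposite directions (r = -0.499 across 18378 features, which are not independent), so the numbers were not taken to pair samples.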

Additional observations from a re-analysis of the deposited data

How the results depend on the processing

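*SOX2* stayed lower under every alternative run, with log2 changes between -1.98 and -1.40 when single arrays were left out and -1.72 with median scaling, with no further scaling and with the series table, where it also passed an adjusted p of 0.05. With normexp it was -1.16. Under those 3 settings 2 receptor genes passed the adjusted threshold, against 0 in the reported fit. They were *HTR4* and *GABRA3*, of which *GABRA3* was kept only through the mock arrays. The infinite prior degrees of freedom of the fits under those 3 settings gave all features 1 SD. The count past 2-fold was 1 with normexp, with a floor of 0.05 and when each array had to exceed an S/N of 3, each time *HTR4* with 0 genes lower. It was 4 without an S/N filter (3 higher; 72 genes kept), 6 at 1.5-fold, and 2 of the genes were higher where the mean S/N decided. Leaving out single arrays gave 1 to 3 genes past 2-fold (0 to 3 higher, 0 to 1 lower), 4 to 10 at an unadjusted p under 0.05, 10 without mock replicate 1, and a median change from -0.19 to 0.31. The companion lists had 3 genes past 2-fold with normexp and 6 under that stricter S/N filter, against 10. The 6 receptor genes with an unadjusted p under 0.05 kept their sign wherever they had one, and 16 of the 27 kept genes, none of these 6, changed sign under some setting. *GABRA3* was at -0.34 with normexp and -0.68 with a floor of 0.05. Over all features, calls at an adjusted p under 0.05 numbered 240 with a variance trend and 3 under the stricter filter. Causes other than those named were not tested.

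With the replicate block, *SOX2* was at -1.69 and 2 receptor genes were past 2-fold, with 0 at an adjusted and 5 at an unadjusted p under 0.05, against 6 without it. The crossed pairing, added after seeing the data, gave 2, 0 and 8. With 2 arrays per group and an arm of 1 array when one is left out, the lone array is assumed to vary like the other group, and genes with S/N at or under 3 cannot be ranked.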
